A study of Mus musculus with 2 samples.

Results

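Prg4, Creb5, Cilp, Has1, Has2, Clic5, Tspan15, Hbegf and Btc are 9 genes of the joint surface and the synovial lining, out of 22652 genes with a count in E18.5 mouse femoral bone marrow preparations. They were chosen by measured values of these same data, namely their detection together in single cells and their levels in cells with and without at least 20 Col2a1 UMIs per 10000 UMIs. A UMI, or unique molecular identifier, marks 1 captured transcript molecule. All values on which the choice rests are therefore a description and carry no test. All 9 genes had UMIs in both libraries.

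The series compared embryos at E18.5 of 2 genotypes, WT and Bmx-CreER Wls, with 1 library per genotype. Per the paper, wild-type marrow came from C57BL/6 mice, and mutant lines were kept on a predominantly C57BL/6 background. In Bmx-CreER Wls embryos, a tamoxifen-activated Cre driven by Bmx, a gene of arterial endothelial cells, removes floxed Wls, whose product carries Wnt proteins to the cell surface for secretion. Pregnant dams of such embryos received tamoxifen. The sources used here do not say whether the WT library came from littermates, whether its dam received tamoxifen, or how many embryos entered each library. Both preparations were crushed, digested with collagenase and depleted of lineage-committed haematopoietic cells with magnetic beads, and the Cre driver is aimed at arterial endothelial cells, not at connective tissue. Since each genotype was sequenced once, there was no replicate check, no test was run between genotypes, and every interval below covers counting error only.

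A synovial joint is bounded by articular cartilage, whose superficial cells face the joint cavity, and by a synovial membrane, whose lining fibroblasts face the same cavity from the other side. Both surfaces secrete lubricin, the product of Prg4, and lining fibroblasts also make hyaluronan, the long sugar chain of synovial fluid. Deeper chondrocytes fill their matrix with type II collagen, the product of Col2a1, which synovial fibroblasts do not deposit.

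The WT table held 5998 barcodes and 22708005 UMIs, and that of Bmx-CreER Wls held 6825 barcodes and 24704991 UMIs. After filtering, 5736 and 6620 cells remained, with medians of 3128 and 3067 UMIs. The libraries shared 49 barcodes, of which 48 were among the kept cells of each library, and the values below include those cells. In the endothelial-like cluster led by the arterial gene Gja5, Wls stood at 40.2 CPM (UMIs per 1000000 UMIs, 95% interval 19.3 to 73.9) in WT and 10.5 CPM (2.16 to 30.7) in Bmx-CreER Wls, on 10 and 3 UMIs, too few to check the labels firmly. Joint clustering gave 17 clusters, of which 9 were called connective, holding 4261 WT and 5533 Bmx-CreER Wls cells. Because 8 of the 9 genes were among the variable genes used for clustering, levels across clusters are also a description.

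The 9 genes did not share 1 cell type. Prg4 and Cilp were highest in Col2a1-containing clusters, whereas Creb5, Has1, Clic5, Tspan15, Hbegf and Btc were highest in a small cluster poor in Col2a1, and Has2 was highest in hypertrophic chondrocyte-like cells. In both libraries, 6 of the 9 genes had their top level in the small cluster, which is called by its leading genes the Hbegf and Clic5 cluster (142 WT and 140 Bmx-CreER Wls cells, median 3039 and 3447 UMIs). It contained 1172 and 1794 Col2a1 CPM. Endothelial-like clusters held 205 to 1512 CPM in WT and 371 to 2217 in Bmx-CreER Wls, so at this level free RNA cannot be told apart from expression. The cluster led by Prg4 and Cilp (707 and 1156 cells) contained 24790 and 36124 Col2a1 CPM, and a cluster led by Stc1 and Bpifb1 (153 and 349 cells) contained 7094 and 10822.

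**Figure D1:**
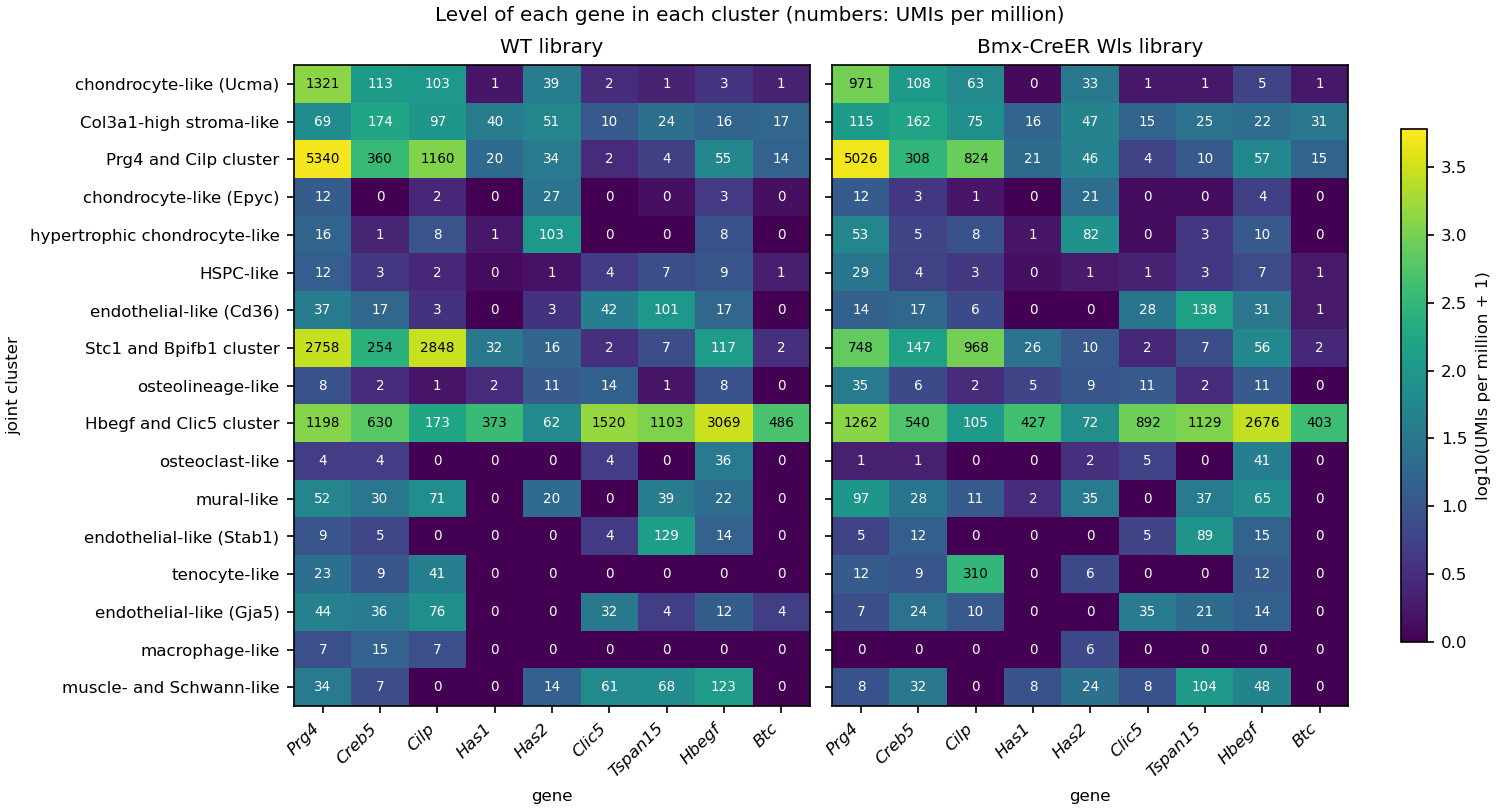
Level of each of the 9 genes (columns) in each of the 17 joint clusters (rows), in UMIs per 1000000 (CPM), for the WT and the Bmx-CreER Wls library. The Hbegf and Clic5 cluster held the top level of 6 genes in both libraries, and Prg4 stood at 5340 and 5026 CPM in the Prg4 and Cilp cluster.

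Prg4 encodes lubricin, the boundary lubricant of joint surfaces (GRCm38 chr1:150449412-150466165, minus strand). Its level in the Prg4 and Cilp cluster reached 5340 CPM in WT (95% interval 5230 to 5452) and 5026 in Bmx-CreER Wls cells (4948 to 5104), and 77.5% and 82.3% of these cells had a Prg4 UMI. In WT the next levels were 2758 CPM in the Stc1 and Bpifb1 cluster, 1321 in chondrocyte-like cells led by Ucma, and 1198 in the Hbegf and Clic5 cluster, where the intervals of the last pair overlapped. In the Bmx-CreER Wls library the Hbegf and Clic5 cluster came next at 1262 CPM, ahead of the Ucma cells at 971 and the Stc1 and Bpifb1 cluster at 748. Every other cluster lay at or below 68.9 CPM in WT and 115 CPM in Bmx-CreER Wls. The 115 CPM was that of Col3a1-high stroma-like cells, where 1 cell gave 105 of 302 Prg4 UMIs. Prg4 was also found in 3.63% and 3.83% of haematopoietic cells, at 10.1 and 20.2 CPM, a level at which free RNA cannot be told apart from expression.

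Cilp encodes cartilage intermediate layer protein, a secreted cartilage matrix protein that binds TGF-beta (chr9:65265180-65280605, plus strand). Its top level was in the Stc1 and Bpifb1 cluster, at 2848 CPM in WT and 968 in Bmx-CreER Wls cells, followed by the Prg4 and Cilp cluster at 1160 and 824 CPM. In the Hbegf and Clic5 cluster Cilp stood at 173 and 105 CPM, with a UMI in 10.6% and 7.14% of cells. Prg4 by contrast had a UMI in 26.8% and 25.7% of the same cells. In haematopoietic cells 0.279% and 1.06% had a Cilp UMI.

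Creb5 encodes a leucine zipper transcription factor of the CREB and ATF family, known as a regulator of Prg4 in superficial cartilage (chr6:53287270-53700376, plus strand). Its 2 top levels in both libraries were in the Hbegf and Clic5 cluster (630 and 540 CPM) and in the Prg4 and Cilp cluster (360 and 308 CPM). It was found in 81.7% and 77.1% of cells of the former and in 49.9% and 52.0% of the latter. Col3a1-high stroma-like cells held 174 and 162 CPM. Chondrocyte-like cells led by Epyc, which are rich in Col2a1, held 0 Creb5 UMIs in WT and 9 UMIs (3.15 CPM) in Bmx-CreER Wls, and haematopoietic cells had a UMI in 1.96% and 1.70%.

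Hbegf and Btc encode ligands of the EGF receptor family that are made as membrane proteins and released by proteases (chr18:36504927-36515805 and chr5:91357261-91402994, both minus strand). Hbegf stood at 3069 CPM in WT (2910 to 3236) and 2676 in Bmx-CreER Wls cells (2534 to 2823) of the Hbegf and Clic5 cluster, with the next cluster at 123 and 64.9 CPM. Its share of cells was 85.2% and 83.6% there against 7.82% and 7.45% of haematopoietic cells. Btc stood at 486 CPM (424 to 555) and 403 CPM (349 to 462), and the next cluster, Col3a1-high stroma-like cells, held 16.96 and 31.2 CPM. The cluster held 78.2% and 72.0% of each library's Hbegf UMIs and 69.5% and 59.0% of its Btc UMIs. The same cluster made up 2.48% of WT and 2.11% of Bmx-CreER Wls cells.

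Tspan15 encodes a TspanC8 tetraspanin, a partner of the sheddase ADAM10 (chr10:62185396-62231251, minus strand). It stood at 1103 CPM (1008 to 1204) and 1129 CPM (1038 to 1227) in the Hbegf and Clic5 cluster, with a UMI in 88.7% and 87.1% of cells. It was also detected in endothelial-like cells, at 96.5 and 109 CPM and in 24.7% and 29.3% of cells, against 2.51% and 1.49% of haematopoietic cells. Clic5 encodes a chloride intracellular channel family protein that associates with ezrin at the membrane (chr17:44188584-44280172, plus strand). Its level in the cluster was 1520 CPM (1409 to 1638) in WT and 892 CPM (811 to 979) in Bmx-CreER Wls, intervals that did not overlap, while its share of cells was 75.4% and 72.1%, against 6.30% and 6.67% of endothelial-like cells. No other cluster exceeded 61.3 CPM in WT, where the 9 UMIs came from 1 muscle- and Schwann-like cell, or 35.0 CPM in Bmx-CreER Wls.

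Has1 and Has2 encode hyaluronan synthases (chr17:17843323-17855205 and chr15:56665627-56694539, both minus strand), and they did not go together. Has1 stood at 373 CPM (319 to 434) and 427 CPM (371 to 488) in the Hbegf and Clic5 cluster, where 50.7% and 62.1% of cells had a UMI, and at most at 39.6 and 26.5 CPM elsewhere. Has2 was highest in hypertrophic chondrocyte-like cells, at 103 CPM (91.2 to 116) in WT and 81.8 CPM (71.6 to 92.98) in Bmx-CreER Wls, with a UMI in 37.4% and 36.3% of these cells, whose median depth was 6481 and 6694.5 UMIs. The Hbegf and Clic5 cluster followed at 62.1 CPM (41.3 to 89.8) and 72.5 CPM (50.8 to 100), which overlapped the hypertrophic cells in the Bmx-CreER Wls library and Col3a1-high stroma-like cells (51.4 and 47.2 CPM) in both. Has2 therefore goes against the common name of the 9 genes at this stage. Has3 had 0 UMIs in the Hbegf and Clic5 cluster of either library, where 3 counts would allow 6.66 and 6.04 CPM.

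**Figure D2:**
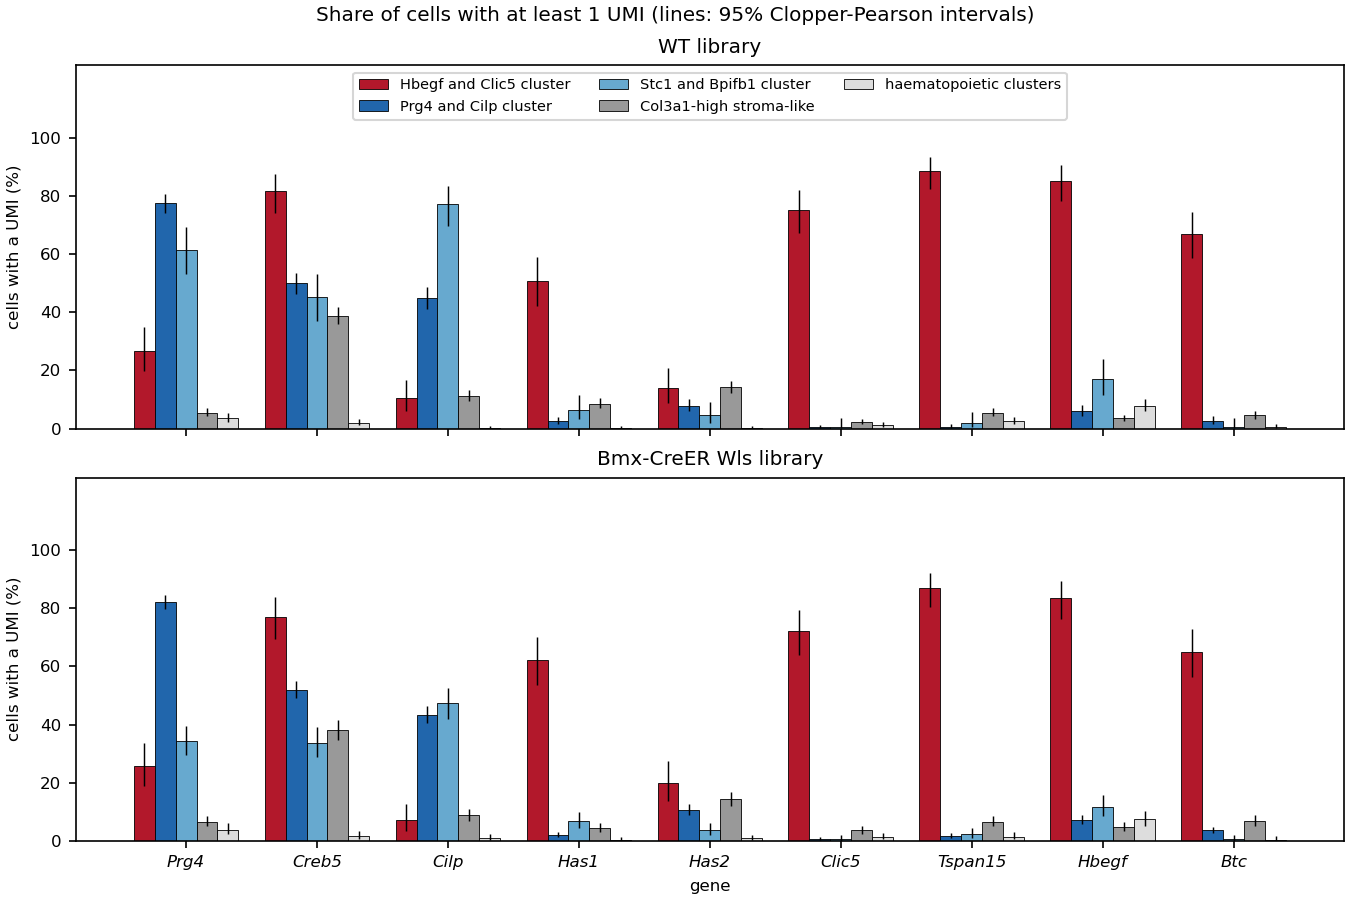
Share of cells with at least 1 UMI of each gene, in percent, in 4 connective clusters and in haematopoietic cells of each library, with 95% Clopper-Pearson intervals as lines. Hbegf was found in 85.2% and 83.6% of cells of the Hbegf and Clic5 cluster, against 7.82% and 7.45% of haematopoietic cells.

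The cluster's own markers bear on its name. It held 677 and 703 CPM of Cd55 and 166 and 254 CPM of Pdpn, surface proteins of synovial lining fibroblasts, and 879 and 797 CPM of the junction collagen Col22a1. Vcam1, also known from lining fibroblasts, stood at 4.44 and 0 CPM, and Thy1, a marker of the sublining, at 0 in both libraries. Cd248, another sublining marker, stood at 308 and 270 CPM, so the markers of the lining did not all point 1 way and no cell type name is given. Cdh5 of endothelial cells and Ptprc of blood cells were at 0 in both libraries. Rgs5, a mural gene, reached 750 and 743 CPM with Acta2, Myh11 and Kcnj8 at 0, and Cd34 reached 968 and 999 CPM with Kit at 2.22 and 2.01 CPM. When clustering was repeated without the 9 genes, 277 of the 282 cells (98.2%) stayed in 1 cluster of 298 cells. For the Prg4 and Cilp cluster 1527 of 1863 cells (82.0%) stayed together, and for the Stc1 and Bpifb1 cluster 340 of 502 (67.7%).

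The windows of 250 bases before the RefSeq start (GRCm38.p6) are shown for genes that shared the Hbegf and Clic5 cluster, because Creb5, the transcription factor among them, belongs to a family that binds the cAMP response element TGACGTCA and, with AP-1 partners, the element TGANTCA. From the table used, 7 windows of 6 of the 9 genes were searched. No window of Prg4, Has2 or Hbegf was searched. This does not mean that the table lacked them, and nothing is said here about their windows. Sequences run 5′ to 3′ along the gene, and capitals mark either element.
Creb5, upstream start (chr6:53287053-53287302, plus strand): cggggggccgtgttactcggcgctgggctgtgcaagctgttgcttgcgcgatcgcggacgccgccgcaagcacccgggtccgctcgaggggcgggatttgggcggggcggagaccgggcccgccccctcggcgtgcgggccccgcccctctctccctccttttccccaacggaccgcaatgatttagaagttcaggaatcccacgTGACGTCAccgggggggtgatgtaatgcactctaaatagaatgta
Creb5, downstream start (chr6:53573124-53573373, plus strand): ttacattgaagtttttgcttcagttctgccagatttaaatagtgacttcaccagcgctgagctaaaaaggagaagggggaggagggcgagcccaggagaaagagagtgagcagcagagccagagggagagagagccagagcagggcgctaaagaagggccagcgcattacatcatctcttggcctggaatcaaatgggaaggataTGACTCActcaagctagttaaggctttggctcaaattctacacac
Has1 (chr17:17855189-17855438, minus strand): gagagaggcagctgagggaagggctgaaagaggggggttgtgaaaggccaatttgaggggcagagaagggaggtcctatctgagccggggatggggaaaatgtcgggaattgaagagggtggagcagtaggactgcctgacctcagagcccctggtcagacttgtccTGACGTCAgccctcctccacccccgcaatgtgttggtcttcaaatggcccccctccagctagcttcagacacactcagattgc
Tspan15 (chr10:62231219-62231468, minus strand): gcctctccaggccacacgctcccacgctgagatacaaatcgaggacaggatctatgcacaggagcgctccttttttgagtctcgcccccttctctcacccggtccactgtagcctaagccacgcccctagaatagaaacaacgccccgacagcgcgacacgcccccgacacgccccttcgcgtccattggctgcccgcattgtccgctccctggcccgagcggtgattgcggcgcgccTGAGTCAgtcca
Clic5 (chr17:44188322-44188571, plus strand): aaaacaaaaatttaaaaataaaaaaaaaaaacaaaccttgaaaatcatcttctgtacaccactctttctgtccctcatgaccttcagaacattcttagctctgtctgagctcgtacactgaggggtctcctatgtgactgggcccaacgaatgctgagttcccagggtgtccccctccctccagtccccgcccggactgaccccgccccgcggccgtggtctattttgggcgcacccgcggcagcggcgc
Btc (chr5:91402995-91403244, minus strand): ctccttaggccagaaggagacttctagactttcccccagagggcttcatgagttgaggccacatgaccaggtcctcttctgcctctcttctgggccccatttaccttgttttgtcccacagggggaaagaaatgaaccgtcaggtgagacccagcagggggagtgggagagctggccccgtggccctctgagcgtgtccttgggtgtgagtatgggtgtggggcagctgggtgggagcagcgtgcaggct
Searched on both strands, TGACGTCA was found once in the window of Has1, with its first base 83 bases before the start, and once in that of the upstream Creb5 start, 45 bases before it. TGANTCA was found once before Tspan15, 12 bases from the start, and once before the downstream Creb5 start, 45 bases from it. Of 32851 such windows in the table, 1.55% held TGACGTCA and 6.75% held TGANTCA. Neither was in the windows of Clic5, Btc and Cilp. A match is a run of letters and was not tested as a binding site.

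The split by Col2a1 content was part of the rule, and its values are given as a description. Of all kept cells, 2670 (46.5%) in WT and 4395 (66.4%) in Bmx-CreER Wls held at least 20 Col2a1 UMIs per 10000 and are called Col2a1-rich. Over all cells, Prg4 stood at 1303 CPM in Col2a1-rich and 88.2 CPM in Col2a1-poor WT cells, a ratio of 14.8 (13.9 to 15.7), and at 1424 and 127 CPM in Bmx-CreER Wls, a ratio of 11.2 (10.6 to 11.9). Prg4, Cilp and Has2 passed a 2-fold ratio upwards in both libraries, where 7.08% (WT) and 7.11% (Bmx-CreER Wls) of all counted genes did. Has1, Clic5, Tspan15, Hbegf and Btc passed it downwards, as did 25.3% and 23.5% of genes. Creb5 had ratios of 1.18 and 1.31.

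In each haematopoietic and endothelial cluster at most 8% (WT) and 6.60% (Bmx-CreER Wls) of cells were Col2a1-rich. The split was therefore repeated in connective cells alone (2617 rich and 1644 poor cells in WT, 4343 and 1190 in Bmx-CreER Wls). Prg4 then stood at 1334 against 195 CPM in WT, a ratio of 6.82, and at 1446 against 287 CPM in Bmx-CreER Wls, a ratio of 5.04. It was the only gene of the 9 past 2-fold upwards, as were 6.36% and 6.06% of counted genes. Clic5 was 28.2 and 21.5 times as high in Col2a1-poor as in Col2a1-rich connective cells, Tspan15 31.2 and 20.6 times, Hbegf 13.1 and 12.4 times, and Btc 15.4 and 13.8 times. With Has1 (58.4 against 4.47 CPM and 60.6 against 7.58 CPM) these 5 genes passed 2-fold downwards, as did 13.6% and 13.1% of genes. Creb5 turned over, to ratios of 0.549 (0.5001 to 0.602) and 0.615 (0.563 to 0.672), and Has2 stood at 1.27 and 1.01. The ratio of Cilp was 1.95 and 1.36.

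Along the Col2a1 content of connective cells, Prg4 rose to a peak and fell again. The highest level was at 160 to 320 Col2a1 UMIs per 10000, with 4402 CPM in WT and 4070 in Bmx-CreER Wls. Cilp peaked at 40 to 80, with 1892 and 1221 CPM. The threshold cut through the rise: just outside it, at 15 to 20, the 45 WT and 50 Bmx-CreER Wls cells held 1024 and 927 CPM of Prg4 and 156 and 499 CPM of Hbegf. Just inside, at 20 to 25, the 31 and 51 cells held 584 and 1211 CPM of Prg4 and 61.5 and 303 CPM of Hbegf. Across the threshold Prg4 was lower in WT and higher in Bmx-CreER Wls, so both libraries had no common step there.

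**Figure D3:**
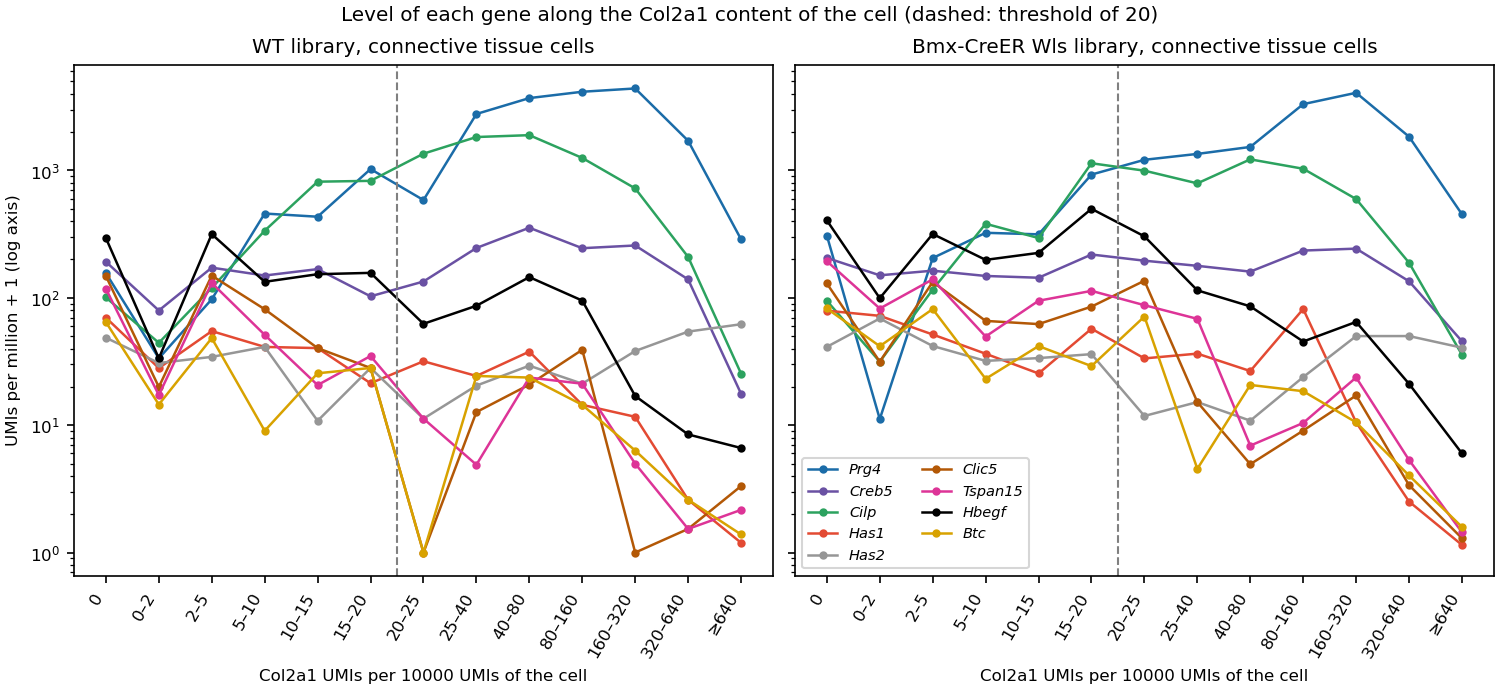
Level of each gene in connective cells (CPM + 1, log axis) in bins of the cell's Col2a1 UMIs per 10000, for each library, with the threshold of 20 as a dashed line. Prg4 peaked at 160 to 320 with 4402 and 4070 CPM and Hbegf had its lowest level at the Col2a1-rich end.

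Prg4 was detected together with Creb5 and Cilp in the same connective cells, and less clearly with the other genes. Of the Prg4-positive connective cells, 68.4% in WT (65.5% to 71.1%, 1085 cells) and 66.4% in Bmx-CreER Wls (64.1% to 68.5%, 1837 cells) held at least 1 UMI of another of the 9 genes, against 37.6% and 33.6% of Prg4-negative cells. Prg4-positive cells were the shallower, with medians of 2320 and 2654 UMIs against 3201.5 and 3124.5. Creb5 was found in 45.7% and 46.8% of Prg4-positive cells (against 19.3% and 16.8% of Prg4-negative cells), Cilp in 40.5% and 34.5% (against 6.20% and 7.03%) and Hbegf in 8.39% and 6.97% (against 5.60% and 5.41%). Has2 was the less frequent in Prg4-positive cells, at 8.76% and 9.74% against 13.4% and 11.7%. The intervals of the shares with and without Prg4 overlapped for Clic5, Tspan15, Has1 and Btc in both libraries, and for Hbegf and Has2 in Bmx-CreER Wls. With each cell thinned to 1000 UMIs the shares with any other gene were 56.8% and 48.6% against 20.3% and 18.8%. Those of Has2 were then 3.02% and 3.62% against 4.29% and 3.54%, with intervals that overlapped in both libraries. In Col2a1-poor connective cells 88.9% of 144 WT and 79.5% of 122 Bmx-CreER Wls Prg4-positive cells held another gene, against 50.5% and 53.5% of Prg4-negative cells.

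Creb5 and Cilp accompanied Prg4 in Col2a1-rich and in Col2a1-poor cells. In Col2a1-rich connective cells with Prg4, Creb5 was found in 44.4% and 46.3% (against 6.92% and 9.51% of cells without Prg4) and Cilp in 38.8% and 34.2% (against 3.76% and 5.33%), while Hbegf was found in 4.68% and 4.90% (against 2.80% and 2.74%). Btc was found in 2.13% and 2.16% of these cells (against 0.239% and 0.457%) and Has1 in 2.13% and 1.63% (against 0.418% and 0.913%), and Clic5 and Tspan15 in under 1% of cells with or without Prg4. In Col2a1-poor connective cells with Prg4, Creb5 was found in 54.2% and 54.1% (against 33.2% and 34.8% of cells without Prg4), Cilp in 51.4% and 39.3% (against 8.93% and 11.2%) and Hbegf in 32.6% and 36.1% (against 8.73% and 11.99%). Tspan15, Clic5, Has1 and Btc were each found in between 21.3% and 28.7% of these cells and in at most 12.6% of those without Prg4. Has2 was the exception. It was found in 6.94% and 9.02% of Col2a1-poor cells with Prg4 and in 11.9% and 12.5% of those without.

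The Col2a1-poor cells with Prg4 were not 1 population. Of 144 in WT and 122 in Bmx-CreER Wls, 44 and 38 were Col3a1-high stroma-like, 37 and 32 were in the Hbegf and Clic5 cluster, 29 and 23 in the Prg4 and Cilp cluster, and 27 and 22 in the Stc1 and Bpifb1 cluster. The largest part of their Prg4 UMIs came from the Hbegf and Clic5 cluster, with 482 and 566 UMIs, although the Col3a1-high stroma-like cells with 127 and 179 UMIs were more numerous. Within the Hbegf and Clic5 cluster all 38 Prg4-positive WT cells held Tspan15, as did 32 of 36 in Bmx-CreER Wls, and 37 of 38 and 35 of 36 held Hbegf. Cilp was found in 2 and 3 of them. By the shares given above, most cells of the whole cluster held Tspan15 and Hbegf too, and few held Cilp. These counts alone therefore do not tie Tspan15 or Hbegf to Prg4. Among Col2a1-poor connective cells, 72.5% and 73.5% of those with Clic5 also held Tspan15, and 77.3% and 74.0% of those with Tspan15 held Creb5. For comparison, Tspan15 was in 27.8% and 28.7% of Col2a1-poor connective cells with Prg4 and in 9.40% and 12.5% of those without. Creb5 was in 54.2% and 54.1% of those with Prg4 and in 33.2% and 34.8% of those without.

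**Figure D4:**
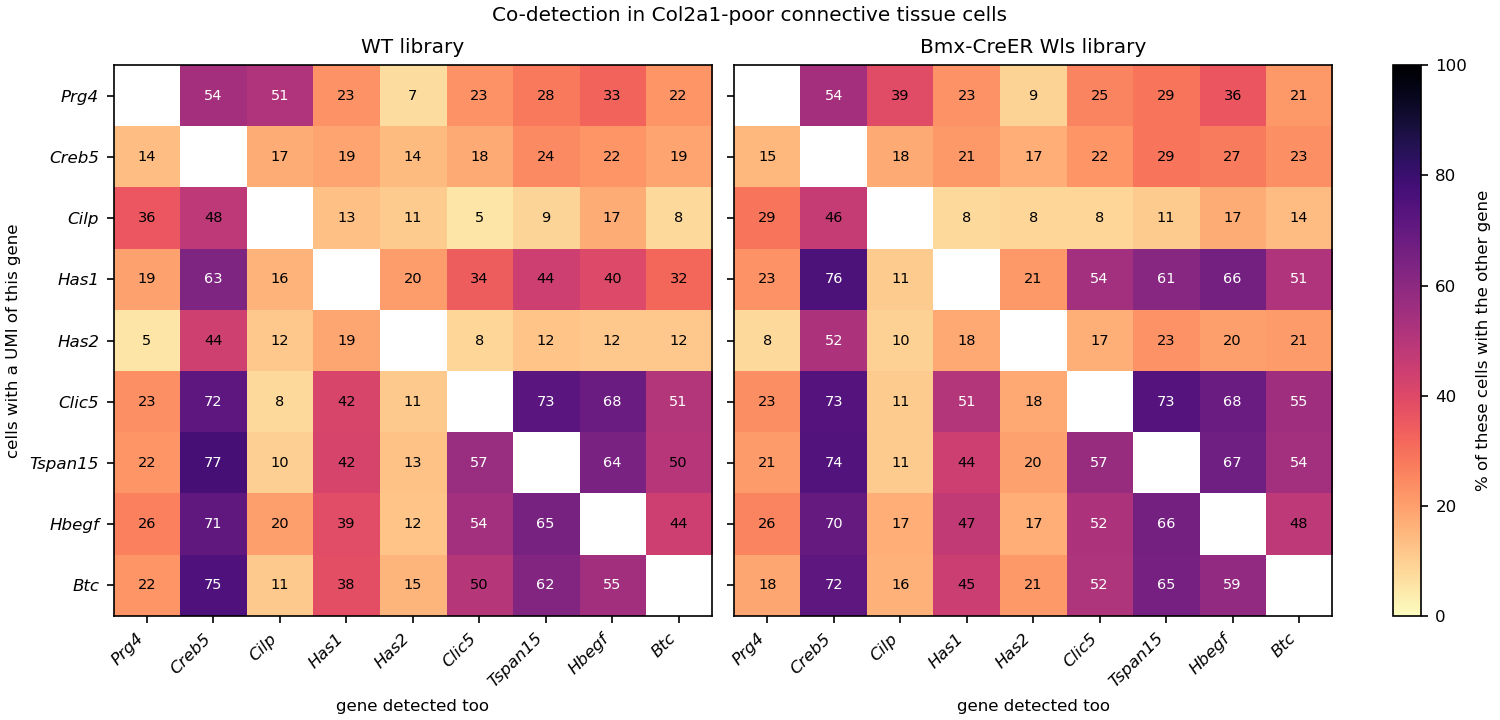
Co-detection in Col2a1-poor connective cells of each library: each square gives the share, in percent, of cells with a UMI of the row's gene that also held the column's gene. Of cells with Clic5, 72.5% and 73.5% held Tspan15, and Creb5 was found in most cells with Has1, Clic5, Tspan15, Hbegf or Btc. Of Col2a1-poor connective cells without Prg4, 33.2% and 34.8% held Creb5.

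The genes of the Hbegf and Clic5 cluster were also counted per cell. In the Hbegf and Clic5 cluster the median cell held 5 of the 9 genes in both libraries, and none held all 9. At least 3 of the 5 genes Hbegf, Clic5, Tspan15, Btc and Has1 were found in 119 of 142 WT cells (83.8%) and 117 of 140 Bmx-CreER Wls cells (83.6%). Outside the cluster 14 of 4119 (0.340%) and 25 of 5393 (0.464%) connective cells did so. Thinned to 1000 UMIs, 51.4% of the cluster's cells did so in either library, against 0.0496% and 0.171% outside. The cluster is partly defined by these genes, so these shares describe it. The cells' doublet scores from Scrublet had medians of 0.0256 and 0.0324, within the range of the other connective clusters.

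Against the other connective cells, levels in the Hbegf and Clic5 cluster were past 2-fold higher in both libraries for 6 of the 9 genes (Creb5, Has1, Clic5, Tspan15, Hbegf and Btc) and lower for none, where 11.5% of counted genes were higher and 9.17% lower. In the Prg4 and Cilp cluster Prg4, Cilp and Creb5 were higher and Clic5 and Tspan15 lower, where 1.96% of counted genes were higher and 6.71% lower. The counts below use the same rule for other genes of each pathway, with at least 50 UMIs and the 9 genes left out, and the median ratio of all counted genes was 1.10 in the former comparison and 0.996 in the latter.

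Around the EGF ligands Hbegf and Btc, 3 of 8 other counted genes were higher in the Hbegf and Clic5 cluster and 1 was lower, with a median ratio of 2.003. The higher ones were the receptor Egfr (129 and 80.5 CPM against 38.1 and 37.6), the sheddase Adam10 (579 and 483 against 71.3 and 48.1) and the receptor's feedback inhibitor Errfi1 (590 and 493 against 31.9 and 38.2). The ligand Tgfa was the lower one (2.22 and 6.04 against 18.1 and 19.7). The sheddase Adam17 (175 and 117 against 73.0 and 63.0) and the receptors Erbb2 and Erbb4 were not past 2-fold in both libraries. None of 3 counted TspanC8 tetraspanins other than Tspan15 was higher or lower. In the Prg4 and Cilp cluster 1 EGF gene was higher (Errfi1, 102 and 118 against 42.3 and 36.2 CPM), none was lower, and 1 of the 3 other TspanC8 genes, Tspan17, was lower.

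Of 5 other counted CLIC and ERM genes, which encode Clic5 relatives and the ezrin family of membrane linkers, 4 were higher in the Hbegf and Clic5 cluster, with a median ratio of 3.40. They were Clic1, Clic4 (1301 and 1168 CPM against 315 and 331), Ezr (442 and 437 against 90.2 and 78.0) and Msn (406 and 322 against 112 and 101). None of the 5 was higher or lower in the Prg4 and Cilp cluster. Of 11 other counted hyaluronan genes, whose median ratio was 1.07, 2 were higher in the Hbegf and Clic5 cluster, the hyaluronan receptor Cd44 (1134 and 1252 against 175 and 92.9) and the hyaluronan-binding Tnfaip6 (222 and 225 against 60.2 and 59.7). Another 3 were lower, Hmmr and the link proteins Hapln1 (164 and 354 against 3476 and 3425) and Hapln3. In the Prg4 and Cilp cluster Tnfaip6 was higher and Cd44 and Hapln3 were lower. Of 8 other counted CREB and ATF genes, Crem was higher in the former cluster and none was higher or lower in the latter.

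The embryonic joint interzone is the cell layer that forms the joint. Of its 14 counted genes, 7 were higher in the Hbegf and Clic5 cluster (Osr1, Osr2, Dact2, Vit, Col22a1, Tgfbr2 and Sfrp2) and none was lower, with a median ratio of 2.71. In the Prg4 and Cilp cluster 4 were higher (Gdf5, Erg, Barx1 and Vit) and 5 were lower, among them Dact2, Col22a1 and Sfrp2. The transcription factor Erg stood at 235 and 210 CPM there against 27.5 and 40.2, and the growth factor Gdf5 at 90.5 and 120 CPM against 31.7 and 44.6. In the Hbegf and Clic5 cluster Gdf5 stood at 75.5 and 107 CPM against 37.3 and 56.3, and Barx1 at 133 and 123 CPM against 38.6 and 70.1, both past 2-fold in WT alone. Vit was higher in both clusters. Of 10 synovial fibroblast genes 5 were higher in the Hbegf and Clic5 cluster (Cd55, Pdpn, Fap, Itga6 and Cd248) and 2 lower (Thy1 and Vcam1), while in the Prg4 and Cilp cluster 7 were lower and none higher. Of 4 other genes of the CILP family and TGF-beta, none passed 2-fold in the former, and Cilp2 (67.9 and 113 against 4.19 and 7.51 CPM) was higher in the latter.

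Early response genes, which dissociation of tissue can raise, were high in the Prg4 and Cilp and the Stc1 and Bpifb1 clusters. Their 12 members summed to 10751 and 10393 CPM in the former against 5583 and 6451 CPM in the other connective cells, and Dusp1 and Nr4a1 were past 2-fold higher. In the Stc1 and Bpifb1 cluster they summed to 14142 and 14811 CPM. In the Hbegf and Clic5 cluster 3 of them, Fos, Fosb and Nr4a1, were lower and none was higher. Hbegf and Errfi1 are themselves known to be inducible. The part of dissociation in these levels was not tested.

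Over the 34 pairs of a cluster and a library, the genes most like Prg4 among 11180 were Stk32b, Gm17455, Creb5, Prkd1 and Hand2, with Pearson's r of 0.929 to 0.872 on log2(CPM + 10). For Has1 they were Btc (0.934), Lhx9, Lrrn4cl, Rasl10a and Dusp14 (0.893). The points share libraries, the joint clustering and, for each cluster, its depth, so these values only describe the pattern. Among the 9 genes, Prg4 went with Creb5 at 0.887 and with Tspan15 at 0.189. In Col2a1-rich connective cells the 10 genes that led Prg4-positive over Prg4-negative cells were Fgf18, Tnfrsf19, St6gal1, Sema3e, Ssc5d, Cyfip2, Cilp, Vwa1, Creb5 and Cilp2. In Col2a1-poor connective cells they were Rgs5, Cilp, Rab37, Hbegf, Fam180a, Clic5, Hapln1, Cdh13, Stc1 and Ackr2, so Cilp led in both groups, Creb5 in the former and Hbegf and Clic5 in the latter.

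Between the libraries, 7 of the 9 genes had ratios of 0.901 to 1.16 over all cells. Prg4 stood at 915 CPM in Bmx-CreER Wls against 591 in WT, a ratio of 1.55 (1.51 to 1.58), and Clic5 at 23.3 against 37.6 CPM, a ratio of 0.618 (0.554 to 0.688). None of the 9 passed 2-fold, where 1.18% of counted genes did so upwards and 1.35% downwards. The share of Col2a1-rich cells was 66.4% against 46.5%, and within Col2a1-rich cells Prg4 stood at 1424 against 1303 CPM, a ratio of 1.09 (1.07 to 1.12). With the mean over cells in place of the summed level that ratio was 0.936, so no direction is given. None of the 9 passed 2-fold there (1.11% of genes upwards, 0.634% downwards). In Col2a1-poor connective cells the ratio of Prg4 was 1.47 (1.35 to 1.597) and that of Tspan15 1.39 (1.24 to 1.57), and again none passed 2-fold (1.03% upwards, 0.586% downwards). That of Prg4 fell below its interval as a mean over cells, after thinning and without the cells with most Prg4 UMIs, as given in the last section. A difference between genotypes cannot be told apart from one between 2 preparations.

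In the Hbegf and Clic5 cluster, Prg4 (1262 against 1198 CPM), Has1 (427 against 373), Has2 (72.5 against 62.1) Tspan15 (1129 against 1103), Creb5 (540 against 630) and Btc (403 against 486) had ratios whose intervals included 1. Clic5 stood at 892 against 1520 CPM, a ratio of 0.587 (0.519 to 0.662), Cilp had a ratio of 0.605 (0.417 to 0.870) and Hbegf one of 0.872 (0.808 to 0.941). None of the 9 was past 2-fold there, where 0.697% of counted genes were upwards and 0.418% downwards. In the Prg4 and Cilp cluster none of 7 counted genes was past 2-fold (0.871% of genes upwards, 0.92% downwards). The ratio of Prg4 was 0.941 and that of Cilp 0.711 (0.670 to 0.754).

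In the Stc1 and Bpifb1 cluster the counted genes were all lower in the Bmx-CreER Wls library. Prg4 stood at 748 CPM in Bmx-CreER Wls against 2758 in WT, a ratio of 0.271 (0.249 to 0.296), Cilp at 968 against 2848, a ratio of 0.340 (0.314 to 0.368), and Hbegf at 56.1 against 117, a ratio of 0.481 (0.331 to 0.705). Of 4 counted genes, 3 were past 2-fold lower and none higher, where 1.26% of genes were lower and 1.8% higher. Creb5, the fourth, had a ratio of 0.578 (0.454 to 0.739). A Prg4 UMI was found in 61.4% of WT and 34.4% of Bmx-CreER Wls cells, and a Cilp UMI in 77.1% and 47.3%. The cluster held 153 WT and 349 Bmx-CreER Wls cells, of which 70.6% and 81.1% were Col2a1-rich, and without the 9 genes in the clustering 67.7% of it stayed together. Its 4 hypertrophic chondrocyte genes summed to 494 CPM in WT and 1112 in Bmx-CreER Wls, with Ihh at 0 in WT, and its 8 chondrocyte genes to 15771 and 20501 CPM. The part of this make-up in the ratios was not tested.

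**Figure D5:**
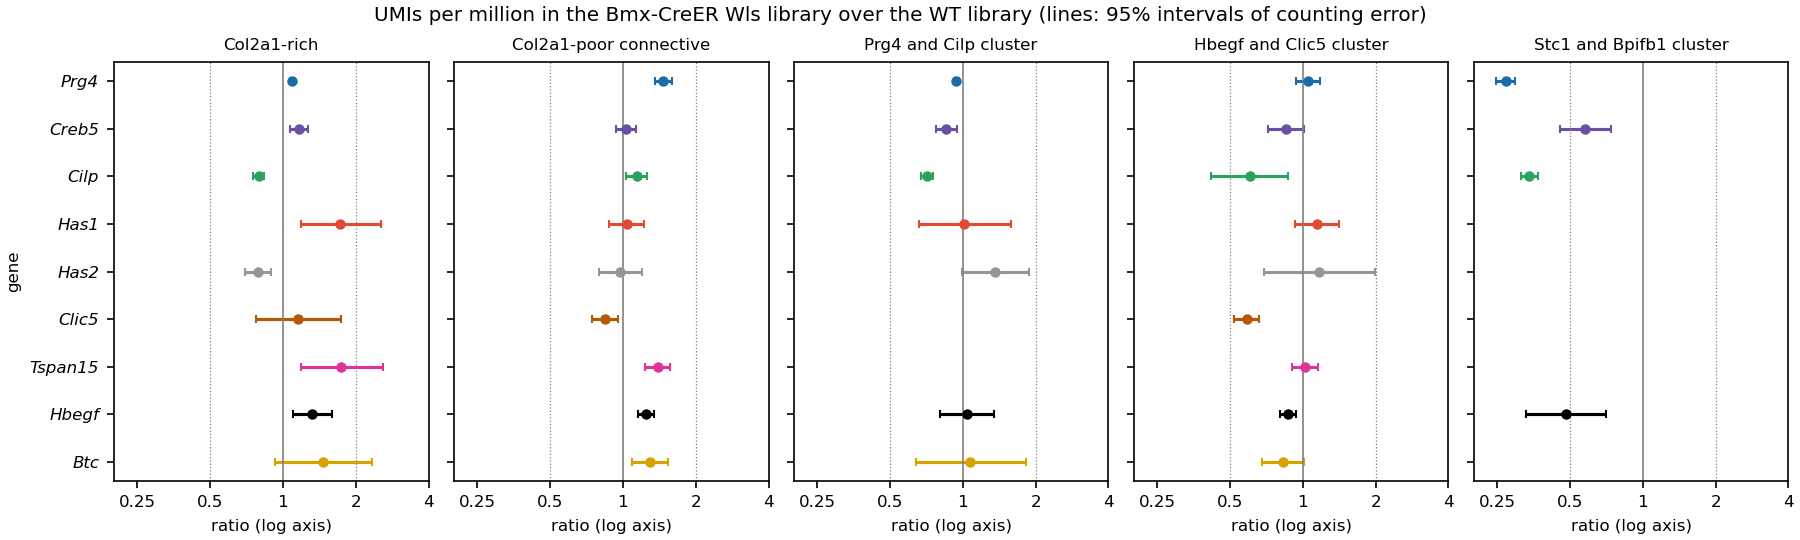
Ratio of the level (CPM) in the Bmx-CreER Wls library over the WT library for each gene with at least 50 UMIs, on a log axis, in 5 groups of cells, with lines for 95% intervals of counting error. In the Stc1 and Bpifb1 cluster Prg4 stood at 0.271, Cilp at 0.340 and Hbegf at 0.481.

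In Col3a1-high stroma-like cells Has1 stood at 16.4 CPM in Bmx-CreER Wls against 39.6 in WT, a ratio of 0.413 (0.287 to 0.584), the only one of the 9 genes past 2-fold there (0.748% of genes lower, 1.13% higher). In hypertrophic chondrocyte-like cells, of 3 counted genes Prg4 was past 2-fold higher, at 53.3 against 15.6 CPM, where 1.04% of genes were higher and 0.653% lower. Has2, whose top level lies in these cells, stood at 81.8 against 103 CPM there, a ratio of 0.794 (0.664 to 0.949). Of 152 Prg4 UMIs in these Bmx-CreER Wls cells, 56 came from 1 cell.

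Some counts could not be assigned to a gene with certainty. Prg4 overlaps Tpr and Has2 overlaps Has2os on the opposite strand, and Creb5 overlaps the small nuclear RNA gene Gm25818 on its own strand. The sources used here do not say whether counting used the strand, so reads of these overlaps cannot be told apart.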

How the data were processed

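Cells of 1 WT and 1 Bmx-CreER Wls library were captured on the BD Rhapsody system. The tables deposited by the authors hold raw counts of UMIs for each gene and barcode, from reads handled with bcl2fastq 2.19.1.403, UMI-tools 1.0.1, STAR 2.7.1a (mm10) and featureCounts 1.6.4, per the submitters' processing notes. The count totals of kept cells had medians of 3128 and 3067 UMIs.

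A cell was kept if it had over 200 but under 5000 detected genes and a mitochondrial share below 30%, and doublets stayed in. Both libraries were clustered together (log-normalization to 10000, 11 principal components, 20 neighbours, Leiden resolution 0.5) with scanpy 1.11.5 and leidenalg 0.10.2. Clusters were named from fixed markers, from their leading genes, or from both. These rebuilt names are not the authors'. Levels are summed UMIs per 1000000, with exact Poisson 95% intervals. Shares have Clopper-Pearson intervals and ratios conditional binomial intervals (scipy 1.17.1). Only the ratio intervals were checked on simulated data. Those counts were drawn from the Poisson model that the intervals assume, so the check does not cover UMIs clumped in single cells. A gene counted with at least 50 UMIs was called higher or lower past a 2-fold ratio. A count of 0 allows 3 counts. The genes named are the 9 genes, the lists of their pathways, and the genes most like Prg4 and Has1 or leading Prg4-positive cells. The 9 genes and the lists were chosen with earlier results of these data known. There were 28 planned and 6 added alternatives.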

Additional observations from a re-analysis of the deposited data

Results flagged for a closer look

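Prg4 and Cilp are listed here because their ratios between the libraries passed 2-fold in opposite directions in different clusters. The difference between clusters was not tested, and each direction rests on 1 library per genotype. Prg4 in Bmx-CreER Wls over WT stood at 3.42 in hypertrophic chondrocyte-like cells, where 1 Bmx-CreER Wls cell gave 56 of 152 UMIs. It stood at 2.33 in HSPC-like cells, where 1 cell gave 34 of 66 UMIs, and at 0.380 in the endothelial-like cluster led by Cd36, where 1 WT cell gave 31 of 44 UMIs. In the Stc1 and Bpifb1 cluster it stood at 0.271. Cilp stood at 0.340 in the same cluster and at 7.51 (3.81 to 16.9) in tenocyte-like cells, with 106 UMIs in 100 Bmx-CreER Wls cells against 9 UMIs in 71 WT cells. A Cilp UMI was found in 38.0% of the former and 4.23% of the latter. Over 47 pairs of a gene and a cluster with at least 50 UMIs, 3 were past 2-fold higher and 5 lower, with intervals that excluded 1. In the clusters with a share given above, 0.697% to 1.8% of all counted genes were past 2-fold higher and 0.418% to 1.26% lower. These shares rest on the fold alone, without the rule on intervals, so they do not match the counts of pairs exactly. No such share is given for the HSPC-like, Cd36-led endothelial-like and tenocyte-like clusters.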

How the results depend on the processing

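For 85 results, 792 values were computed under alternatives. Of those of the main comparisons, 71 stayed within the counting interval (counts within 1.5 times), 29 moved and 2 reversed, and of those of single genes, 527 stayed, 155 moved and 8 reversed. Prg4 in Col2a1-rich over Col2a1-poor cells stayed above 1 throughout. Over all cells it was 12.7 (WT) and 9.16 (Bmx-CreER Wls) as a mean over cells, 13.8 and 13.2 without the 1% of cells with most Prg4 UMIs, 12.3 and 9.51 after thinning, 17.9 and 12.6 at a Col2a1 threshold of 10, and 8.88 and 7.89 at 40. Without the 5% highest Scrublet scores it was 12.4 in Bmx-CreER Wls. In connective cells it was 6.40 and 5.97 without the top 1%, 8.02 and 5.44 at a threshold of 10, and 4.16 and 3.73 at 40, with 5.52 without the Scrublet cells in Bmx-CreER Wls. The share of Prg4-positive cells with another gene was 56.8% and 48.6% after thinning, and 72.3% and 71.6% with at least 2 Prg4 UMIs.

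The direction of Prg4 between the libraries in Col2a1-rich cells depended on the measure, with 0.936 as a mean over cells, 0.9503 after thinning and 1.22 without the top 1%. Over all cells it was 1.29, 1.30 and 1.70, and in Col2a1-poor connective cells 1.32, 1.24 and 1.29. Reversed ratios between the libraries were those of Cilp over all cells (0.900 as a mean, 0.911 thinned), of Creb5 (0.986) and Hbegf (0.987) in Col2a1-rich cells as a mean, of Tspan15 (0.969, without the top 1%) and Has1 (0.948, thinned) in Col2a1-rich cells, and of Cilp (0.992, without the top 1%) in Col2a1-poor connective cells. Cilp in Col2a1-rich over Col2a1-poor connective Bmx-CreER Wls cells was 0.914 at a threshold of 40. The cause was not tested. Under each alternative run for it, the cluster with the highest Hbegf level held the top level of 6 genes in both libraries. The exception was 30 principal components in Bmx-CreER Wls, where it held 7. This count did not check that the cells or the genes were the same. No paired analysis was possible because there was 1 library per genotype.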
